A study of Mus musculus with 18 samples.

Results

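The 10 pluripotency genes described here were Pou5f1, Nanog, Sox2, Klf4, Esrrb, Zfp42, Tbx3, Prdm14, Dppa3 and Tfcp2l1, out of 22350 protein-coding genes on the autosomes and X. They were taken by name from the GENCODE annotation of the NCBIM37 mouse genome, where Tfcp2l1 is listed as Tcfcp2l1. The rule went by name and used no measured value, but it was set with earlier results of these data known. Each gene was read in 3 regions, which were the start window (1 kb either side of the start of the gene record), the upstream window (1 to 10 kb before the start) and the rest of the gene body.

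Whole-genome bisulfite sequencing of mouse embryonic stem cells (ESCs) gave 18 libraries. The control libraries were labelled wild type and the Dnmt1 KO libraries carried a deletion of Dnmt1, and each genotype was sampled at days 1, 3, 6, 9 and 11, with 2 replicates per day and 1 at day 6. The strain label was E14 throughout, whereas the methods described floxed C57BL/6 cells in which Cre removed Dnmt1 after tamoxifen, grown in serum with LIF, with or without feeders, so the genotypes may also differ in line. At day 1 the upstream levels summed over the 10 genes were 50.9% ± 7.93 in control and 48.2% ± 0.944 in Dnmt1 KO (SD, n = 2 each), before they parted at day 3. Over all autosomal CpGs the libraries of day 1 already differed, at 77.3% and 74.8% in control and 69.9% and 70.2% in Dnmt1 KO. The median difference over all genes tested at day 1 was -6.82 points in the upstream window and -6.87 in the gene body. Bisulfite leaves methylated cytosine unconverted, so each read over a CpG gave 1 call, and a methylation level is the percent of methylated calls.

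DNMT1 copies CpG methylation onto the newly made DNA strand after replication, so that methylation is diluted through cell divisions when the enzyme is missing. ESCs rest on a network of transcription factors centred on OCT4 (the product of Pou5f1), SOX2 and NANOG. KLF4, ESRRB, TBX3, PRDM14 and TFCP2L1 hold up the naive state around this core, while Zfp42 (Rex1) and Dppa3 (Stella) are genes that such cells express. The promoters of several of these genes are known to gain methylation when cells leave pluripotency.

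The libraries held 7190722 to 11158414 calls each, with 1.202 to 1.25 calls per listed cytosine, so levels were summed over regions and single CpGs were not compared. Over a run of 39 consecutive CpGs in Dnmt1 itself (chr9:20744012-20745970, NCBIM37), the 7 Dnmt1 KO libraries of days 3 to 11 had 0 calls and the 2 of day 1 had 4, against 173 in the 9 control libraries (6 to 29 each). This run was found as the longest without a call in those 7 libraries, and the calls in control there matched the genotype labels. Intervals given below are 95% exact (Clopper-Pearson) and cover counting error only, since calls from the same read are not independent. Where no call was methylated, the limit given is the share that 3 calls of the total would make.

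The 250 bases before the start are printed for 6 of the genes, because they show the forms that the start took in these cells. In control, Sox2, Nanog and Zfp42 had no methylated call in this stretch, Dppa3 and Prdm14 were partly methylated, and Esrrb was mostly methylated. The letters run 5′ to 3′ on the strand of the gene, with each CpG in capitals, and come from NCBIM37.
Sox2: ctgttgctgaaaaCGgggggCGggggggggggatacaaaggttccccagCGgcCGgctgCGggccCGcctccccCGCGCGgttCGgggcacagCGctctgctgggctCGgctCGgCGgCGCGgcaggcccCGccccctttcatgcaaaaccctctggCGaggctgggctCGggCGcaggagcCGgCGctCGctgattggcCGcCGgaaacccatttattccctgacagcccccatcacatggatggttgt
Nanog: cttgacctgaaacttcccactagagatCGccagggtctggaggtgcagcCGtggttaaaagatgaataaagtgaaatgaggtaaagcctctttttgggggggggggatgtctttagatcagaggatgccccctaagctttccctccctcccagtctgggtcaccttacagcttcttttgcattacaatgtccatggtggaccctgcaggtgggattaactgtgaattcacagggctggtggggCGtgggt
Zfp42: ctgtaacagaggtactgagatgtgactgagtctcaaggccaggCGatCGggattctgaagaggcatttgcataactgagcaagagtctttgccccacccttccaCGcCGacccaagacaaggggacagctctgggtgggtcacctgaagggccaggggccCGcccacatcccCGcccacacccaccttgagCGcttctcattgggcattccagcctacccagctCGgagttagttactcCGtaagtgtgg
Dppa3: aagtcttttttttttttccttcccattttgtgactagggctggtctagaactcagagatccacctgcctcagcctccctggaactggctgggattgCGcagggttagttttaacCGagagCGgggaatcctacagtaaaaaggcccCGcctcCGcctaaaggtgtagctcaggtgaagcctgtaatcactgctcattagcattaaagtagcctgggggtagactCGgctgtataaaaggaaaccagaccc
Prdm14: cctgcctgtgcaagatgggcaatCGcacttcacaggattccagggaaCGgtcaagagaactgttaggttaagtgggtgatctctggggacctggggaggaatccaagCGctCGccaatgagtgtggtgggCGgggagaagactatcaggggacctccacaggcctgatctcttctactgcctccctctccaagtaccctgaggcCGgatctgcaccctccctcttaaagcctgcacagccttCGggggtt
Esrrb: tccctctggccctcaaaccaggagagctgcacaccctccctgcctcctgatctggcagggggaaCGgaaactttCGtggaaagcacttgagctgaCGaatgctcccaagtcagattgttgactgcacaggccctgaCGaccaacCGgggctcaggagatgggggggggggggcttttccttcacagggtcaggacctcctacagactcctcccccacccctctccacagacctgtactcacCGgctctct

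These stretches lay at chr3:34548677-34548926 (plus strand) for Sox2, chr6:122657257-122657506 (plus) for Nanog, chr8:44392364-44392613 (minus) for Zfp42, chr6:122576178-122576427 (plus) for Dppa3, chr1:13117245-13117494 (minus) for Prdm14 and chr12:87701817-87702066 (plus) for Esrrb. They differed widely in CpG content, with 25 CpGs for Sox2, 9 for Zfp42, 7 for Prdm14, 6 each for Dppa3 and Esrrb, and 3 for Nanog. In the control libraries, 0 of 71 calls were methylated in the Sox2 stretch, which allows a level of up to 4.23%. The same was true of 0 of 44 calls for Zfp42 (up to 6.82%) and 0 of 14 for Nanog (up to 21.4%). The letters TTTGCAT, the octamer core read by OCT4, were searched on both strands. They occurred in these 3 stretches, from 75 to 69 bases before the start of Nanog, 185 to 179 before that of Zfp42 and, on the other strand, 109 to 103 before that of Sox2. The 250 bases before the start held them in 3 of the 10 genes and in 878 of all 22350 genes (3.93%). Genes without these letters also had unmethylated stretches in control. At Klf4 0 of 77 calls were methylated and at Pou5f1 0 of 34, with 1 of 86 at Tfcp2l1 and 1 of 51 at Tbx3. A match is a description of the sequence and was not tested as a binding site. The search was chosen after the stretches had been read.

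Dppa3, the gene of a maternal factor that shields methylation in the early embryo, had 9 of 34 control calls methylated in its stretch (26.5%, 12.9% to 44.4%) and 0 of 22 in Dnmt1 KO at days 6 to 11, which allows up to 13.6%. Prdm14, whose product holds down the de novo methyltransferases in naive cells, had 4 of 16 and 0 of 7. At the Esrrb stretch 6 of 9 control calls were methylated, and 0 of 3 were in Dnmt1 KO. With so few calls, a difference at Prdm14 and Esrrb was not detectable at this depth in a stretch of this length.

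Over the wider start window, the sum of the 10 genes was lowly methylated in both genotypes. At day 1, control read 11.3% ± 4.33 (SD, n = 2) and Dnmt1 KO 11.5% ± 0.281 (n = 2). The pair read 7.14% ± 1.22 and 4.60% ± 0.845 at day 3 (n = 2 each), 5.58% and 2.17% in the lone libraries of day 6, 10.7% ± 2.27 and 4.34% ± 4.40 at day 9 (n = 2 each), and 8.78% ± 0.466 and 1.91% ± 0.690 at day 11 (n = 2 each). The genotypes overlapped at day 1. At every later day the Dnmt1 KO values were all under those of control, and the difference averaged over the 5 days was -3.67 points, with the calls of the replicates of each day pooled. The sum leaned on Esrrb, whose start window gave 81 methylated of 108 control calls but 0 calls in Dnmt1 KO day 11 replicate 1. At day 3 Esrrb gave 10 of 19 and 8 of 24 methylated calls in control, and 3 of 8 and 7 of 14 in Dnmt1 KO. A sum without Esrrb was not formed, so the order of the genotypes at single days, as at day 3, may rest on this gene. Prdm14 also had 0 calls in Dnmt1 KO day 3 replicate 1. Summed over the start windows of all genes, control stood at 48.4% to 55.3% by day. The median gene lay much lower, at 13.6% of pooled control calls (18931 genes with at least 50 such calls). Esrrb (79.9th percentile), Dppa3 (63.5th), Prdm14 (57.3rd) and Nanog (55.4th) were above this median gene, and the other 6 genes were below it, from the 1.24th percentile of Sox2 to the 38.6th of Zfp42.

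**Figure D1:**
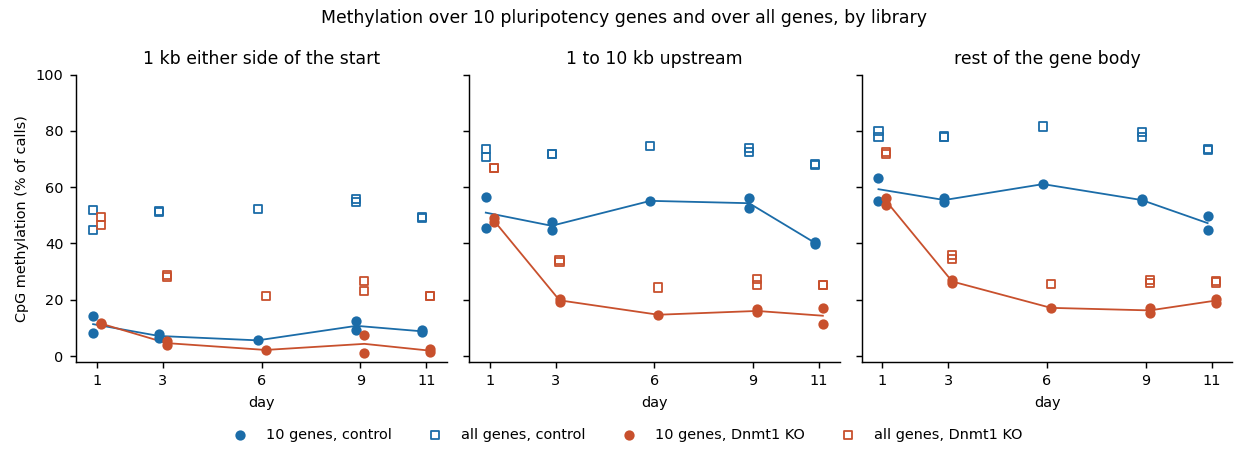
CpG methylation (percent of calls) by day in each library, for the 10 genes summed (filled circles, lines through the day means) and for all genes summed (open squares), in control (blue) and Dnmt1 KO (orange). In every region the circles sit below the squares of the same genotype, and in the upstream window and the gene body the Dnmt1 KO circles leave the control circles between day 1 and day 3.

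Among the core factors, the start windows of Pou5f1 and Sox2 were close to unmethylated in both genotypes. At Pou5f1 (chr17:35642982-35647721, plus strand), the control libraries ranged from 0% to 14.3% with a median of 0%, and 4 of 172 pooled calls were methylated (2.33%). In Dnmt1 KO at days 6 to 11 each of the 5 libraries was at 0%, with 0 of 44 calls, which allows a share of up to 6.82%. At Sox2 (chr3:34548927-34551383, plus strand) 2 of 433 control calls were methylated (0.462%), against 1 of 268 in Dnmt1 KO at days 6 to 11 (0.373%). The Nanog start window (chr6:122657507-122664651, plus strand) was intermediate, from 0% to 33.3% in the control libraries with a median of 20%. In Dnmt1 KO its libraries were at 16.0% at day 6, 26.7% and 0% at day 9 and 4.55% and 0% at day 11, so the genotypes overlapped.

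The factors around the core fell into the same kinds. Klf4, which encodes a zinc-finger activator and had the densest start of the 10 genes, with 89.5 CpGs per kb, had 4 of 591 control calls methylated (0.677%) and 0 of 126 in Dnmt1 KO at days 6 to 11, which allows up to 2.38%. Tbx3, the gene of a T-box factor, had 1.65% of 486 control calls methylated and 0.289% of 346 in Dnmt1 KO. At Tfcp2l1, a target of LIF signalling, the levels were 5.74% of 331 calls and 0.971% of 103. At Zfp42 (chr8:44380422-44392363, minus strand) they were 8.75% of 263 and 2.24% of 134. The median over all genes was 30.5 CpGs per kb at the start, while Nanog had 17.0 and Esrrb 21.0.

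Prdm14 and Dppa3 carried more methylation in the start window. The control libraries of Prdm14 (chr1:13103538-13117244, minus strand) ranged from 0% to 46.2% with a median of 14.3%, and the 5 Dnmt1 KO libraries of days 6 to 11 were at 0%, 8.33%, 22.2%, 7.84% and 0%. Those of Dppa3 (chr6:122576428-122580290, plus strand) ranged from 5.26% to 64.3% with a median of 21.4% in control. In Dnmt1 KO, Dppa3 was at 0% and 34.6% at day 1, 15.4% and 17.6% at day 3, 0% at day 6, 3.70% and 0% at day 9, and 0% and 2.94% at day 11. All 5 libraries of days 6 to 11 thus lay below the lowest control library, which had 1 of 19 calls methylated. That of day 6 had only 2 calls, and both libraries of day 3 lay within the control range. The share of all genes that separate in this window is not given here. The pooled levels were 26.4% of 208 control calls (20.6% to 33.0%) and 1.82% of 110 Dnmt1 KO calls at days 6 to 11 (0.221% to 6.41%). No test could be given for Dppa3 in this window, since the smallest library had 2 calls.

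Esrrb, the gene of an orphan nuclear receptor, was the exception among the starts, because its gene record begins at a methylated place. At that start (chr12:87702067, plus strand), 75% of 108 control calls were methylated (65.7% to 82.8%), as were 71.4% of 35 calls in Dnmt1 KO at day 1, 50% of 20 at day 3 and 20.8% of 48 at days 6 to 11 (10.5% to 34.99%). Further coding transcripts of Esrrb begin downstream, and their starts were lowly methylated. At chr12:87762594 control had 13.8% of 268 calls methylated and Dnmt1 KO at days 6 to 11 had 4.68% of 171. At chr12:87762833, whose window overlaps the last, the levels were 9.30% of 301 and 2.48% of 161. At chr12:87811067 they were 11.7% of 282 and 1.65% of 121, but Dnmt1 KO at day 1 stood at 33.3% of 84 calls (23.4% to 44.5%), above the pooled control. These inner starts were looked at after the value at the gene record was known, and were not tested.

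Whether Dnmt1 KO differed from control in the start window could be tested for few of the genes. The quasi-binomial test with Benjamini-Hochberg adjustment needed 10 calls in every library, which Sox2 and Tbx3 alone of the 10 genes reached. A gene was called at an adjusted p under 0.05 with a difference of at least 10 points. Neither gene was called over the 5 days, with differences of -0.119 points for Sox2 (adjusted p = 0.883) and -0.600 for Tbx3 (adjusted p = 0.622), and none of the 2 had an unadjusted p under 0.05. Their pooled control levels were 0.462% and 1.65%, so a fall of 10 points could not occur and no lower call was possible. Of the 2120 genes tested, 14.3% were called lower. Neither gene was called at day 1, at day 3 or between day 3 and days 6 to 11 of Dnmt1 KO, where 0.236%, 2.88% and 0.519% of all genes were called lower, and neither had an unadjusted p under 0.05 there or a call by limma. With 10 calls asked of each group of replicates instead, which was chosen after the data were seen, 7 of the 10 genes were tested and 0 called, against 25.8% of 11001 genes called lower. Of these 7, only Nanog (17.4%) and Prdm14 (19.0%) had a pooled control level over 10%. The others stood too low to fall by the 10 points a call needed. The largest difference among the 7 was that of Prdm14, at -13.1 points (adjusted p = 0.0510, unadjusted p = 0.0151). With 2 kb either side of the start, Nanog (-16.1 points, adjusted p = 0.00434) and Dppa3 (-11.2 points, adjusted p = 0.0223) were called of 7 tested, where 59.5% of 9313 genes were called lower. With 500 bp either side, where none of these 3 could be tested, the difference turned to 4.72 points at Nanog from -5.37 with 1 kb, and was -25.4 points at Prdm14 and -18.9 at Dppa3. At Esrrb it was -20.9 points with 500 bp against -45.6 with 1 kb.

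**Figure D2:**
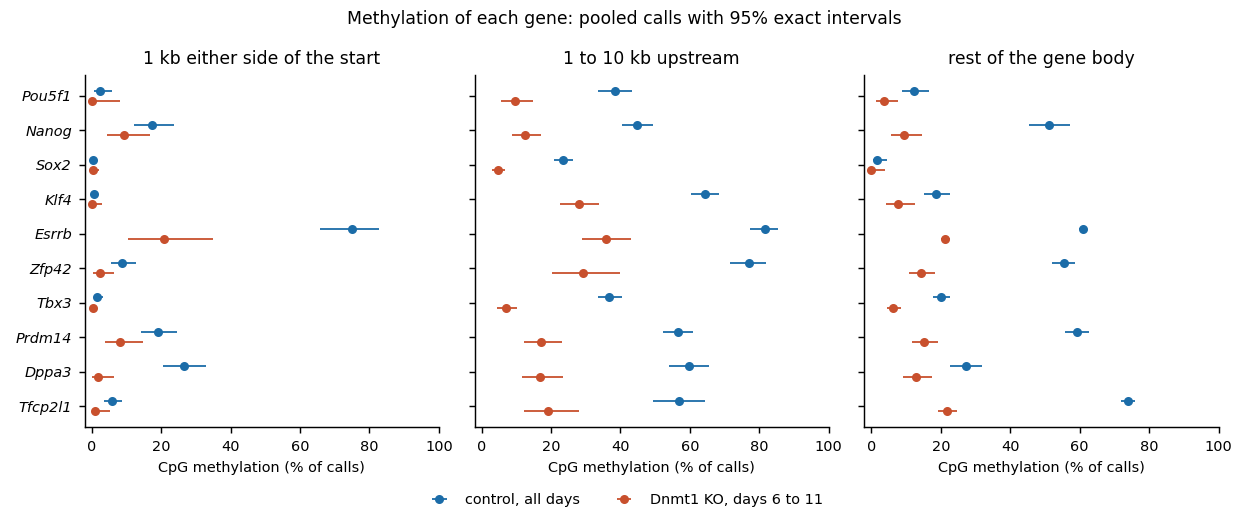
Methylation level of each gene (percent of pooled calls, points, with 95% exact intervals) in control at all days (blue) and in Dnmt1 KO at days 6 to 11 (orange), in the start window, the upstream window and the gene body. Start windows lie at 2.33% or less in both genotypes at Pou5f1, Sox2, Klf4 and Tbx3, and most upstream and gene body levels move left in Dnmt1 KO.

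The upstream windows had pooled control levels from 23.5% at Sox2 to 81.6% at Esrrb, and their sum was lower in Dnmt1 KO from day 3 on. After the sums of day 1 given above, control read 46.3% ± 1.98 and Dnmt1 KO 19.8% ± 0.619 at day 3 (SD, n = 2 each). The later readings, in the same order, were 55.1% and 14.7% in the lone libraries of day 6, 54.3% ± 2.42 and 16.0% ± 0.731 at day 9, and 40.2% ± 0.575 and 14.3% ± 3.98 at day 11 (n = 2 each). Most of the drop was present at day 3, and all 5 later Dnmt1 KO libraries (11.5% to 17.1%) lay below both of day 3 (19.4% and 20.2%). Over all genes the level was 68.0% to 74.5% in control by day and 24.4% to 26.3% in Dnmt1 KO from day 6, so the sum of the 10 genes was lower in both genotypes.

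All 9 genes with enough calls were called lower in Dnmt1 KO over the 5 days, as were 99.2% of the 17374 genes tested, so the count is near the background. Their differences ran from -38.7 points for Esrrb to -14.0 for Sox2, with a median of -28.6 points, against -41.5 over all genes tested. Zfp42 missed the minimum with 9 calls in 1 library. Its difference was -39.3 points, and it was called once 10 calls were asked per group (adjusted p = 2.47e-05), where 99.3% of 20484 genes were called lower.

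Among the core factors, Sox2 had the lowest upstream level in control. Its libraries ranged from 14.5% to 33.7% with a median of 24.5% in control. In Dnmt1 KO they were at 26.4% and 23.4% at day 1, 14.5% and 9.33% at day 3, 4.39% at day 6, 2.86% and 10.9% at day 9, and 2.19% and 6.25% at day 11. The lowest control library (14.47%) and the highest Dnmt1 KO library after day 1 (14.55%) just overlapped, while the 5 libraries of days 6 to 11 all lay below control (-14.0 points over days, quasi-binomial test, adjusted p = 3.93e-06). The window lies inside the noncoding gene Sox2ot, on the same strand.

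Pou5f1 ranged upstream from 23.3% to 59.5% in control, with a median of 36.4%. Its Dnmt1 KO libraries were at 31.1% and 41.2% at day 1, 5.26% and 17.9% at day 3, 0% at day 6, 6.90% and 10.3% at day 9, and 8.11% and 24.3% at day 11. After day 1 only the last of these reached the control range (-26.2 points, quasi-binomial test, adjusted p = 1.61e-05). For Nanog the control libraries ranged from 33.3% to 67.2% with a median of 43.2%. Those of Dnmt1 KO were at 54.8% and 39.1% at day 1, 10.1% and 27.0% at day 3, 16.4% at day 6, 10.4% and 26.1% at day 9, and 6.94% and 10.3% at day 11. From day 3 on they all lay below control (-26.8 points, adjusted p = 3.12e-06).

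Klf4 and Esrrb kept the largest shares of their control level upstream. Klf4 was between 45.1% and 90% in the control libraries (median 64.7%), and in Dnmt1 KO at 55.3% and 71.4% at day 1, 32.6% and 11.5% at day 3, 36.2% at day 6, 41.7% and 31.9% at day 9, and 22.1% and 18.2% at day 11. Esrrb was between 62.5% and 95.2% in control (median 81.8%), and in Dnmt1 KO at 71.1% and 76.2% at day 1, 36.7% and 32.4% at day 3, 33.3% at day 6, 48.6% and 26.7% at day 9, and 33.3% and 35.7% at day 11. For both genes, no Dnmt1 KO library from day 3 on reached the control range (-30.9 and -38.7 points, quasi-binomial test, adjusted p = 4.66e-08 and 5.89e-09). At days 6 to 11 Dnmt1 KO held 48.9% of the control level of the same days at Klf4 and 43.1% at Esrrb, against a median of 28.1% over all genes. Their Dnmt1 KO levels stood at the 82.8th and 96.7th percentile of genes, and that of Zfp42, which held 35.5%, at the 86.4th.

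At the other genes less was kept. Tbx3 held 20.1% of the control level, Prdm14 28.8%, Dppa3 31.2% and Tfcp2l1 37.1%, and the core genes held 20.2% (Sox2), 23.2% (Pou5f1) and 26.4% (Nanog). The differences over days were -24.8 points at Tbx3, -28.6 at Prdm14, -31.3 at Dppa3 and -28.9 at Tfcp2l1 (quasi-binomial test, adjusted p from 6.08e-07 to 0.000216). At each of these 4 genes the Dnmt1 KO libraries from day 3 on lay below all control libraries, and this was so for 7 of the 9 tested genes upstream, against 88.7% of all genes tested. The upstream window of Zfp42 did not separate. Its lowest control library, of day 3, was at 38.5% of 26 calls, while 1 Dnmt1 KO library of day 3 was at 47.1% of 34 and 1 of day 11 at 77.8% with 7 of 9 calls.

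The upstream windows were also tested day by day. At day 1, 0 of 9 genes were called, against 0.0345% of all genes called lower. Klf4 alone had an unadjusted p under 0.05 there (-22.8 points, p = 0.0125, adjusted p = 0.299 by the quasi-binomial test), and limma called 0 as well. At day 3, 7 of 9 were called lower against 93.8% of all genes. The exceptions were Sox2 (-8.82 points, adjusted p = 0.0808) and Dppa3 (-25.2 points, adjusted p = 0.0657). Without Dnmt1 KO day 3 replicate 1, 4 were called. Over all genes, 16303 were called at day 3, and 14077 to 16575 with each library left out in turn. Between day 3 and days 6 to 11 of Dnmt1 KO, 0 of 9 were called, against 0.288% of all genes called lower, with Sox2 at an unadjusted p of 0.0359 (-6.05 points, adjusted p = 0.219) and 0 called by limma. The median over all genes was -8.11 points here, under the 10 points a call needed, and 3480 of 17374 genes had an unadjusted p under 0.05, so the missing calls do not show that the loss had ended by day 3.

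**Figure D3:**
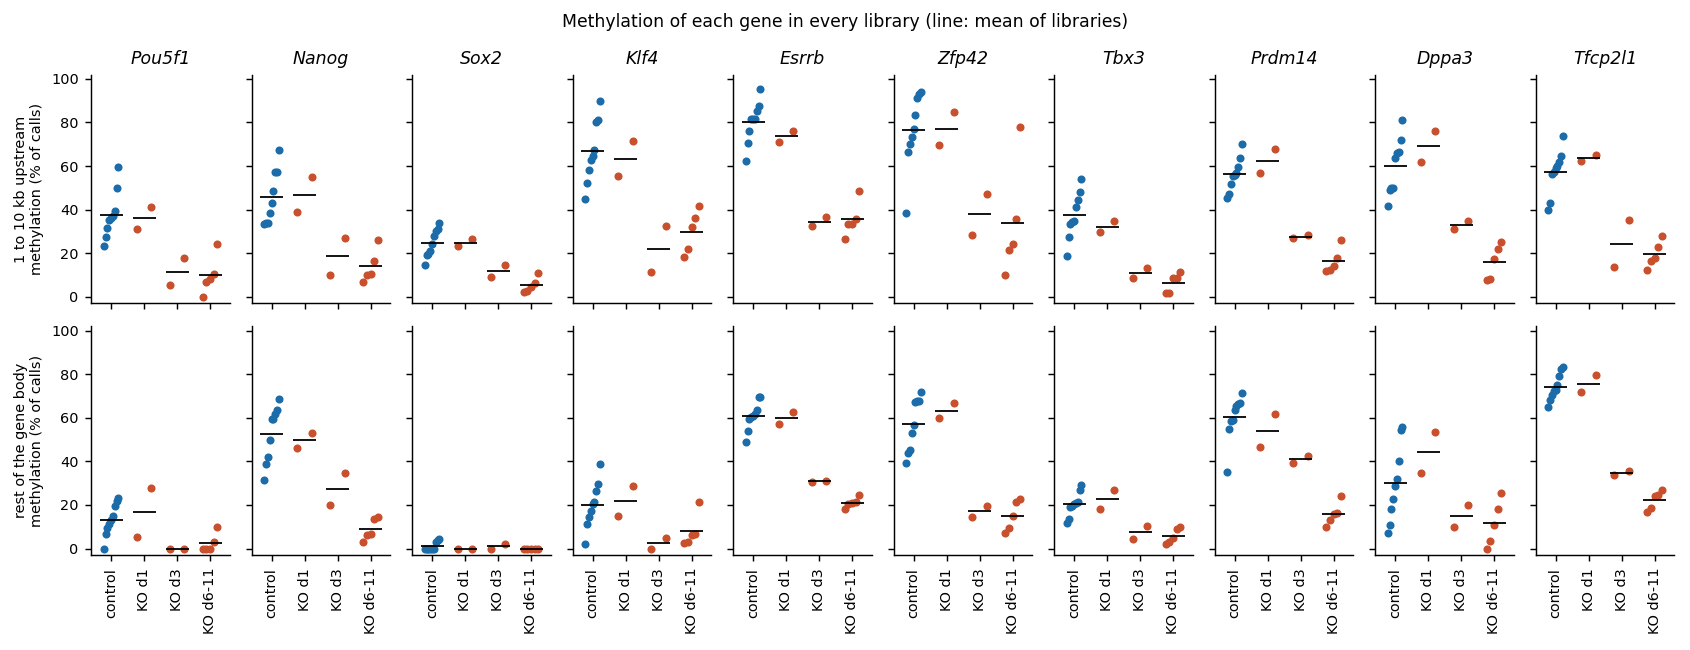
Methylation (percent of calls) of each gene in each library, in the upstream window (top) and the gene body (bottom), for control (blue, 9 libraries) and Dnmt1 KO (orange) at day 1, day 3 and days 6 to 11, with a line at the mean of the libraries. Day 1 of Dnmt1 KO lies within or near the control spread, and the later libraries all lie below all control libraries at 7 of the 9 tested genes upstream and 4 of the 9 in the gene body.

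The gene bodies divided the set. Over the 5 days, 6 of the 9 genes tested were called lower, against 99.4% of 15371 genes. The called genes were Tfcp2l1, Zfp42, Nanog, Prdm14, Esrrb and Tbx3, while Pou5f1, Klf4 and Dppa3 were not called and Sox2 had too few calls. These last 4 were the shortest genes, with 4740, 5335, 3863 and 2457 bases, while the called genes had 7145 or more. Their bodies thus lay close to the start, and those of Pou5f1, Klf4 and Sox2 reached into the low stretch described below. The pooled control levels of these 4 bodies were 12.3% at Pou5f1, 18.6% at Klf4, 27.2% at Dppa3 and 1.55% at Sox2. The median gene stood at 79.1%. Little room for a fall of 10 points was left at Pou5f1 and Klf4, and none at Sox2. Whether gene length or the control level bears on the calls was not tested. The median difference was -30.8 points against -41.7 over all genes tested. At days 6 to 11 Dnmt1 KO held 21.2% of the control level of the same days at Nanog. It held 27.4% at Zfp42, 27.8% at Prdm14, 28.9% at Tbx3, and 29.1% at Pou5f1 and Tfcp2l1. The shares were 36.3% at Esrrb, 39.3% at Klf4 and 48.2% at Dppa3, against a median of 31.7% over all genes. All Dnmt1 KO libraries from day 3 on lay below all control libraries at 4 of the 9 genes, against 95.6% of all genes tested. Summed over the set, the level was 59.3% ± 5.77 (SD, n = 2) in control and 54.9% ± 1.83 (n = 2) in Dnmt1 KO at day 1, and 47.2% ± 3.35 and 19.7% ± 1.03 (n = 2 each) at day 11. Most calls of this sum came from Esrrb, which is 160512 bases long and had 8647 of the calls in control.

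The bodies of Sox2, Pou5f1, Klf4 and Tbx3 were lowly methylated in control. Sox2 is a single-exon gene, and 3 of the 193 control calls in its body were methylated (1.55%), which put it at the 0.124th percentile of genes. In Dnmt1 KO at days 6 to 11, 0 of 95 calls were, which allows up to 3.16%. Pou5f1 stood at the 1.07th percentile, with control libraries from 0% to 23.1% (median 12.96%) and Dnmt1 KO libraries at 5.41% and 27.8% at day 1, 0% and 0% at day 3, 0% at day 6, 3.03% and 9.80% at day 9, and 0% and 0% at day 11. Its adjusted p was 0.0309 by the quasi-binomial test, but the difference of -8.46 points was under the 10 points a call needed, and limma gave an adjusted p of 0.0901.

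Klf4 stood at the 1.74th percentile. Its control libraries ranged from 2.27% to 38.7% with a median of 20.5%, and overlapped those of Dnmt1 KO, which were at 15.2% and 28.8% at day 1, 4.88% and 0% at day 3, 6.15% at day 6, 21.2% and 2.56% at day 9, and 3.12% and 6.67% at day 11 (-9.03 points, quasi-binomial test, adjusted p = 0.0562). The body of Dppa3 varied most between control libraries, from 7.14% to 55.6% with a median of 28.6%. Its Dnmt1 KO libraries read 34.9% and 53.3% at day 1, 10% and 20% at day 3, 18% at day 6, 0% and 3.70% at day 9, and 10.9% and 25.4% at day 11. The difference of -10.2 points was not called (adjusted p = 0.0805). Single libraries decided these calls. Pou5f1 was called without control day 1 replicate 2 (-11.1 points, adjusted p = 0.00555) and without control day 11 replicate 1 (-10.4 points). Klf4 was called without control day 9 replicate 1 (-12.3 points), control day 11 replicate 2 (-11.4), Dnmt1 KO day 1 replicate 2 (-10.95) or Dnmt1 KO day 9 replicate 1 (-10.7). Dppa3 was called without control day 1 replicate 2 (-15.2 points), control day 11 replicate 1 (-10.6), Dnmt1 KO day 1 replicate 2 (-11.1) or Dnmt1 KO day 11 replicate 2 (-11.7).

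Tbx3 was called with the smallest difference, -11.1 points (quasi-binomial test, adjusted p = 0.000203). Its control libraries ranged from 11.8% to 29.1% with a median of 20.5%, and its Dnmt1 KO libraries were at 27.0% and 18.3% at day 1, 10.3% and 4.59% at day 3, 3.06% at day 6, 2.27% and 10% at day 9, and 9.195% and 4.65% at day 11. No library from day 3 on reached the control range. Without either library of day 6 the difference was -9.34 points and without control day 9 replicate 2 it was -9.43, under the 10 points a call needed.

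Tfcp2l1 (chr1:120524522-120581744, plus strand) had the most methylated body of the 10 genes. Its libraries lay between 65.1% and 83.1% in control (median 72.7%), at 71.7% and 79.4% in Dnmt1 KO at day 1, 33.5% and 35.4% at day 3, 16.9% at day 6, 18.6% and 24.6% at day 9, and 26.7% and 24.2% at day 11. The difference was -40.5 points (quasi-binomial test, adjusted p = 1.45e-16), close to the median of all genes. Esrrb had the best covered body, with 48.7% to 69.5% in control (median 61.0%), and 57.0% and 62.8% at day 1, 30.6% and 31.0% at day 3, 20.9% at day 6, 20.3% and 18.1% at day 9, and 21.3% and 24.4% at day 11 of Dnmt1 KO. The Dnmt1 KO replicates of day 3 differed here by under 1 point, and the difference over days was -30.8 points (adjusted p = 2.56e-22).

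Zfp42, Nanog and Prdm14 lost similar amounts in the body, -33.4, -32.8 and -32.3 points (quasi-binomial test, adjusted p = 1.53e-09, 2.56e-06 and 1.55e-08). Zfp42 ranged from 39.4% to 71.7% in control and its Dnmt1 KO libraries from day 3 on reached 22.7% at most, without overlap. Nanog ranged from 31.4% to 68.4% in control, and 1 Dnmt1 KO library of day 3, at 34.8%, reached into that range. Prdm14 ranged from 35.3% to 71.4%, and both Dnmt1 KO libraries of day 3, at 42.6% and 39.4%, lay above the lowest control library. From day 6 on neither Nanog nor Prdm14 overlapped with control.

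At day 1, 0 of 9 gene bodies were called in the set, against 8.12% of all genes called lower. Esrrb had an unadjusted p of 0.0480 (-4.89 points, adjusted p = 0.141 by the quasi-binomial test), and limma called 0. At day 3, 6 of 9 were called lower (Nanog, Klf4, Esrrb, Zfp42, Prdm14 and Tfcp2l1), against 97.4% of all genes. Without Dnmt1 KO day 3 replicate 2 this number was 3. Over all genes, 14971 were called at day 3, and 14422 to 15102 with each library left out in turn. A further fall after day 3 was called for Prdm14 (-25.7 points, adjusted p = 0.00463) and Tfcp2l1 (-12.8 points, adjusted p = 0.0134), 2 of 9 genes against 25.8% of all genes called lower. Without Dnmt1 KO day 3 replicate 2 the number of the 9 genes was 1, and over all genes 1785 were called in place of 3962. The fall at Prdm14 was larger than at all but 0.898% of genes, in a comparison of Dnmt1 KO libraries alone. In control, its body stood at 66.25% and 65.2% at day 3 and at 54.5% of pooled calls at days 6 to 11, which the comparison did not subtract. Its Dnmt1 KO libraries went from 42.6% and 39.4% at day 3 to 10% at day 6, 15.7% and 16.4% at day 9, and 24.1% and 13.1% at day 11, without overlap. The body of Esrrb fell by 9.59 points (adjusted p = 0.000188), just under the 10 points a call needed.

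In steps of 1 kb the genes differed in how far the low methylation around the start reached. The counts below are pooled over the 9 control libraries and over the 5 Dnmt1 KO libraries of days 6 to 11, are descriptions, and were not tested. The low stretch was taken as the unbroken run of steps next to the start with under 10% of control calls methylated in each, a limit set after the profiles were seen. It was longest at Sox2, from 2 kb before to 5 kb after the start, with 1.40% of 1068 control calls methylated (0.788% to 2.31%) and 0.327% of 611 in Dnmt1 KO. At Klf4 it ran from 2 kb before to 3 kb after, with 3.06% of 1014 and 2.18% of 321. At Pou5f1 it ran 2 kb either side, with 2.24% of 312 control calls (0.907% to 4.57%) and 0 of 150 in Dnmt1 KO. At Tbx3 it ran from 1 kb before to 2 kb after, with 1.72% of 639 and 0.482% of 415. It spanned 2 kb at Zfp42 and Tfcp2l1 and 1 kb at Nanog, and Prdm14 and Dppa3 had none. Esrrb had no such dip at the start of its gene record, with 82.4% of 398 control calls methylated over the 10 kb before it and 34.3% of 204 in Dnmt1 KO.

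Steps of low control methylation also occurred away from the start, and those given here were chosen after their values were seen. From 6 to 4 kb before the Nanog start (chr6:122651507-122653506), 6.49% of 154 control calls were methylated (3.16% to 11.6%), with 13.7% of 51 in the outer step and 2.91% of 103 in the inner, although the stretch from 4 kb to the start was at 48.2% of 284 calls and the gene beyond 1 kb at 50.9% of 287. In Dnmt1 KO these 3 stretches stood at 2.99%, 7.01% and 9.09%, closer to each other than in control. At Pou5f1, 1 of 26 control calls was methylated from 4 to 3 kb before the start and 8.33% of 108 from 3 to 4 kb after it. The step of Sox2 from 8 to 7 kb before the start was at 5.76% of 191 control calls, between neighbours at 44.3% and 54.7%. In Tbx3 the step from 9 to 10 kb after the start was at 1.46% of 137 control calls, with 5.97% of 67 in Dnmt1 KO.

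Dppa3 had an uneven start. From 3 to 2 kb before the start 88.6% of 35 control calls were methylated, then 11.4% of 70 in the next step, 39.6% of 91 in the kb just before the start, and 16.2% of 117 and 8.80% of 125 in the first and second kb of the gene. In Dnmt1 KO the kb before the start was at 0 of 35 calls, while the step from 2 to 3 kb after the start was at 13.7% of 131 against 20.1% of 179 in control. Upstream of Zfp42, from 10 to 5 kb, 167 CpGs gave only 25 control calls, of which 92.0% were methylated, whereas 49 CpGs from 5 to 1 kb gave 258 calls at 75.6%. The upstream value of Zfp42 therefore describes its nearer part.

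**Figure D4:**
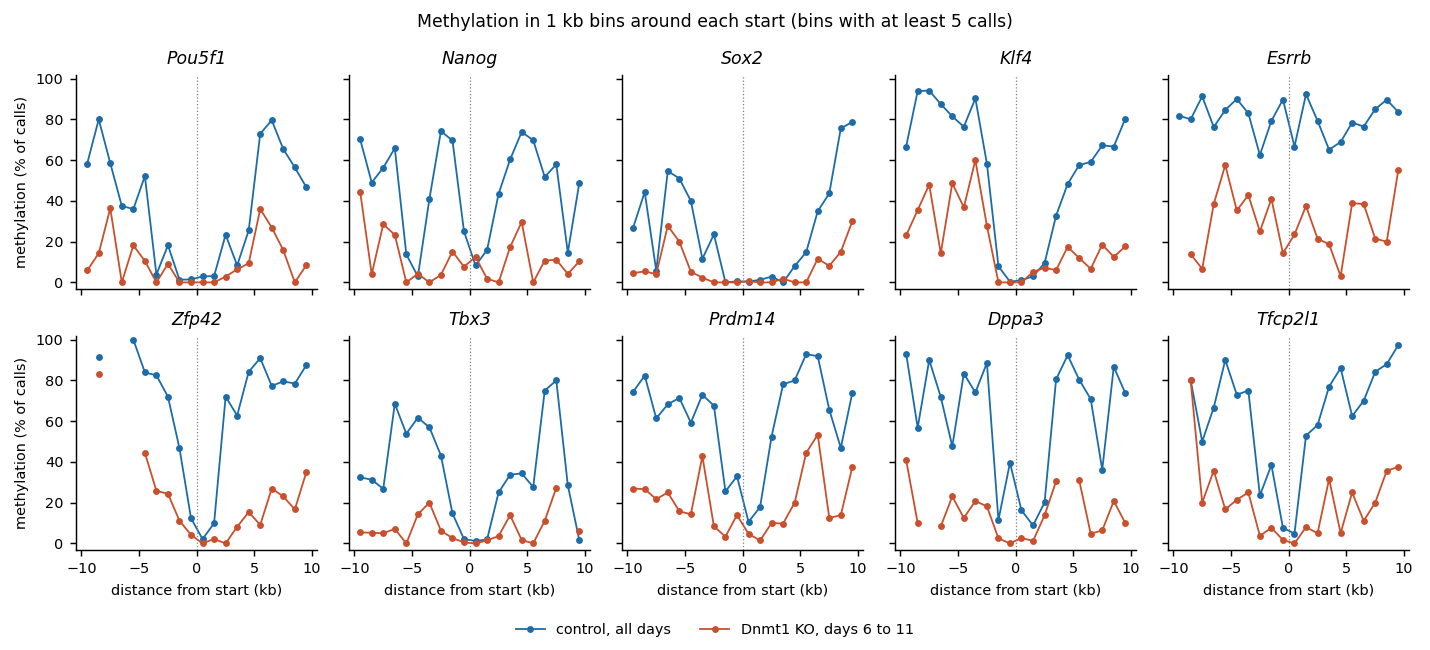
Methylation (percent of calls) in steps of 1 kb from 10 kb before to 10 kb after the start of each gene, pooled over control at all days (blue) and Dnmt1 KO at days 6 to 11 (orange), with steps under 5 calls left out and the start at the dotted line. Low control methylation spans several kb at Pou5f1, Sox2, Klf4 and Tbx3, and recurs at about 5 kb before Nanog. No step next to the start is under 10% in control at Esrrb, Prdm14 or Dppa3.

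A wider list of 28 other genes of the pluripotent state was read in the same way. In the start window 8 were tested and 1 was called lower over days, against 14.3% of all genes. This was Sall4, a zinc-finger factor (-10.9 points, adjusted p = 0.0110). The next lower difference was that of Gbx2 (-8.21), and the differences nearest the other end were those of Fgf4 (2.07) and Tdgf1 (1.89). Upstream 24 of 25 were called lower, against 99.2% of all genes, with a median of -30.5 points. The largest differences were at Stat3, the transducer of LIF (-49.3 points), and Klf5 (-45.0), and the smallest among the called genes was at Tdgf1 (-10.3). In the gene body 18 of 21 were called lower, against 99.4%, with a median of -27.4 points, from Dppa4 (-47.6) and Rif1 (-43.6) to Mycn (-3.12, adjusted p = 0.382). Both lists thus had medians nearer 0 than those of all genes, -41.5 upstream and -41.7 in the gene body. A fall in points cannot exceed the control level. In control the 10 genes reached at most the 30.0th percentile of genes in the body (Tfcp2l1). Upstream all but Esrrb (72.4th) reached at most the 48.4th (Zfp42). The medians in points therefore do not show that a smaller share was lost. Control levels of the wider list are not given here.

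Since the cells may have been grown with feeders, 10 marker genes of fibroblasts were read beside them. Of these, 0 had enough calls in the start window. Upstream 8 of 8 tested were called lower, against 99.2% of all genes, and in the gene body 7 of 7, against 99.4%. The medians, -41.2 and -42.9 points, were close to those of all genes. The amount of feeder DNA in the libraries was not tested.

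The 3 other genes whose start windows followed the summed level of the 10 genes most closely were Cenpj, Ccdc28a and Fam65a. Their levels differed from it by 1.25, 1.48 and 1.53 points on average over the 10 groups of genotype and day, among 5548 genes with at least 20 calls in every group. Cenpj, which encodes a centriole protein, ranged from 1.33% to 12.5%.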

How the data were processed

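Bisulfite reads of 18 libraries were trimmed with Trim Galore, aligned to NCBIM37 with Bismark and deduplicated by the authors. The version given for Bismark is 0.12.3 in the submitters' processing notes and another in the methods. The deposited tables held counts of methylated and unmethylated calls per cytosine, without normalization, and a deposited percent per cytosine, which was not used. Counts of both strands of each CpG were summed over the regions of GENCODE vM1 genes, and gene-level percents were taken from these sums. Groups, days and replicate numbers came from the labels. Whether replicates were separate cultures is not given in the sources used here beyond the word biological, so p-values measure the spread between these libraries.

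The main test was a quasi-binomial score test on regions that had 10 calls or more in each library, run in R 4.3.3. Its dispersion was moderated over genes with limma 3.58.1 and kept at 1 or more, and the test was tried on simulated data. All libraries shared this estimate, so the lone libraries of day 6 were assumed to vary like the others. Benjamini-Hochberg adjustment covered all genes tested. Differences over days are the mean over the 5 days of Dnmt1 KO minus control, with replicates of a day pooled. Intervals used scipy 1.17.1. The text names the 10 genes, the extremes of a wider list of 28 genes (1 of them is not reported here by name), and the 3 other genes with the most similar start levels. A list of 10 fibroblast markers was read as well. The genes, lists and regions were chosen with earlier results of these data known. Alternatives were other call minimums, window sizes and starts, limma with and without a replicate block, masked neighbouring genes, and each library left out. Sequences came from the NCBIM37 genome, and all 10 names matched the annotation.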

Additional observations from a re-analysis of the deposited data

Results flagged for a closer look

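The effect of Dnmt1 KO at days 3 to 11 was compared with that at day 1 for each gene, with limma on the levels per library and adjustment over all genes. It was larger at all 18 tested upstream windows and gene bodies. At 14 of them the change passed at an adjusted p under 0.05, which is the difference between time points that brought them here. Upstream the effect changed by -52.23 points at Prdm14, -42.84 at Nanog, -38.7 at Esrrb, -35.64 at Dppa3, -32.34 at Tfcp2l1, -31.18 at Pou5f1 and -24.65 at Tbx3. In the gene body it changed by -50.16 points at Tfcp2l1, -33.74 at Zfp42, -32.35 at Esrrb, -26.41 at Nanog, -25.94 at Dppa3, -23.71 at Prdm14 and -16 at Tbx3. Of all genes tested, 91.4% passed upstream and 96.9% in the gene body, so a pass is common. The medians over all genes were -42.4 and -43.4 points. Only Prdm14 and Nanog upstream and Tfcp2l1 in the gene body went beyond them, and the other values were smaller in size. The comparison subtracts the day 1 difference, which was 13.1 points at Prdm14, 7.51 at Nanog and -0.324 at Tfcp2l1, none of them called. The medians over all genes at day 1 were -6.82 upstream and -6.87 in the gene body. Over the 5 days, Prdm14 and Nanog upstream stood at -28.6 and -26.8 points, against a median of -41.5. Sox2 and Klf4 did not pass upstream (-11.9 and -10.1 points, limma, adjusted p = 0.0602 and 0.311), nor did Klf4 and Pou5f1 in the gene body (-18.9 and -14.3 points, adjusted p = 0.0739 and 0.219).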

How the results depend on the processing

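Counts over all genes tested moved most, in proportion to their size, in the start window, where few genes had enough calls. Over days 303 genes were called there, and 1425 with 5 calls in every library, 37 with 20, 22 with 500 bp and 5538 with 2 kb either side, 163 by limma with the replicate block and 2833 with 10 calls per group, a setting added after the data were seen. With 2 kb either side 2 of the 10 genes were called in place of 0, and their summed difference was -6.23 in place of -3.67 points. At day 1, 6 genes were called there, and 0 with 20 calls, with cytosines over 20 calls left out, with either window size or by limma with the block. At day 3, 61 were called, and 193 with 5 calls, 32 with 20, 20 with 500 bp, 1360 with 2 kb and 163 with 10 calls per group. After day 3, 11 were called, and 5 with 20 calls or 500 bp, 4 with 2 kb, 2 by limma and 1 with the block. The cause of these shifts was not tested beyond the number of genes that each minimum and window let in.

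Upstream, 17234 genes were called over days, and 9864 with 20 calls in every library or 10817 with other genes masked, which leave fewer genes to test. With 20 calls, 4 of the 10 genes were tested, and all 4 (Nanog, Sox2, Klf4 and Tbx3) were called over days and 3 at day 3. The share of all genes called at this minimum is not given here, so these counts stand without a background. At day 1, 8 genes were called, and 4 with cytosines over 20 calls left out, 17 by limma, 14 with the block and 19 with masking. At day 3, 16303 were called, and 9233 with 20 calls and 10392 with masking. After day 3, 50 were called, and 90 with 5 calls, 14 with 20, 16 with cytosines over 20 calls left out, 8 by limma, 4 with the block, 17 without day 6, 314 with masking and 91 with 10 calls per group. Without day 6 the summed difference of the 10 genes was -23.1 upstream and -24.8 points in the gene body, in place of -26.5 and -28.6.

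With each library left out in turn, the summed difference ran from -27.8 to -23.1 points upstream and from -29.6 to -24.8 in the gene body. The genes called in the start window ran from 4 to 21 at day 1, 31 to 123 at day 3 and 7 to 19 after day 3. Upstream they ran from 7 to 21 at day 1 and 9 to 91 after day 3, and in the gene body from 305 to 1309 at day 1 (1260 with all libraries) and 1785 to 4024 after day 3 (3962 with all). Of the 10 genes, 4 to 7 were called upstream at day 3, 3 to 7 in the gene body at day 3, and 1 to 3 in the gene body after day 3. Over all genes, those called at day 3 ran from 14077 to 16575 upstream and from 14422 to 15102 in the gene body. The number of genes tested changed with the library left out, and the shares called are not given here. Replicate numbers did not pair the samples, since the correlation of replicate differences between genotypes lay between -0.0293 and 0.0527 over the regions and days. With the block, limma called 8 of the 9 gene bodies tested over days in place of 6 without it. It added Klf4 (-10.7 points, adjusted p = 0.0375) and Dppa3 (-12.0 points, adjusted p = 0.0389). The share of all genes called by limma is not given here, so these counts stand without a background. No alternative turned the direction of a value called in the main setting. At the start of Nanog, not tested there, 500 bp either side gave 4.72 points and 2 kb gave -16.1 points.

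Depth limited the start windows above all, where 8 of the 10 genes had a library with under 10 calls, so a missing call there does not show equal levels. At Sox2 and Tbx3, which were tested, the control level was under the 10 points a call needed.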
